A study of Rattus norvegicus with 42 samples.

Results

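Chemokines and their receptors were examined in whole blood of rats with and without experimental stroke and with and without tissue plasminogen activator (tPA), the clot-dissolving protease given in stroke. The genes are those whose single symbol in the probe annotation of the array names a Ccl, Cxcl, Ccr or Cxcr gene, Cx3cl1, Cx3cr1, Xcl1 or Xcr1, with 1 probe set per gene, the one of highest mean. The array held 41 such genes of 14217, 29 ligands and 12 receptors. Chemokine genes with other symbols, such as Pf4 and Ppbp, are outside this rule and not among them. A probe set is called dim here where its mean over all arrays is under log2 4, close to the background of the array. By that limit 14 genes were bright and 27 were dim, a bright share of 34.15%, against 56.03% of all genes. The faintest bright gene had a mean of 4.76 and the brightest dim gene a mean of 3.37.

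The study used 42 male Sprague-Dawley rats of 280 to 350 g, 6 in each of 7 groups, with blood drawn into RNA-preserving tubes and measured on Affymetrix Rat Genome 230 2.0 arrays. Focal brain ischemia was produced by middle cerebral artery occlusion (MCAO) with a filament. In reperfused-MCAO rats the filament was withdrawn after 2 h, and in permanent-MCAO rats it stayed in place until blood was taken at 24 h. A second pair of groups had the same operations and received tPA at 3.3 mg/kg, 3 h after the occlusion began. The remaining groups were naive rats, rats given anesthesia without an occlusion, and rats given the same dose of tPA without an occlusion. No group had sham surgery, so occlusion and operation cannot be told apart. Neither the labels nor the methods state whether rats given tPA without MCAO were anesthetised for it. The methods state that animals were put under isoflurane for the blood draw at 24 h, and they except no group. Comparisons with naive rats and codings of anesthesia below therefore concern anesthesia before that draw.

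Chemokines are small secreted or membrane-bound proteins that guide leukocytes, and they act on G protein-coupled receptors. CC and CXC families are named for the spacing of conserved cysteines near the amino end, and many ligands share receptors. In blood, the receptors sit mainly on leukocytes, where they govern release from the marrow and entry into inflamed tissue, while many of the ligands are made in tissue. After stroke, neutrophils and monocytes that follow such signals reach the ischemic brain.

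The sequence upstream of 4 genes is shown because 3 of them, Ccl6, Ccr1 and Cxcr2, were called higher in both kinds of MCAO and the other, Cxcl16, was called lower in permanent-MCAO. Each is the 250 bases before the annotated start of the gene, 5′ to 3′ on the strand of the gene, from RefSeq on build GRCr8. They lie at chr10:68883367-68883616 (minus strand) for Ccl6, chr8:132439267-132439516 (minus strand) for Ccr1, chr9:83178395-83178644 (plus strand) for Cxcr2 and chr10:55669951-55670200 (minus strand) for Cxcl16. Capitals mark matches to the motifs named after the sequences.
Ccl6: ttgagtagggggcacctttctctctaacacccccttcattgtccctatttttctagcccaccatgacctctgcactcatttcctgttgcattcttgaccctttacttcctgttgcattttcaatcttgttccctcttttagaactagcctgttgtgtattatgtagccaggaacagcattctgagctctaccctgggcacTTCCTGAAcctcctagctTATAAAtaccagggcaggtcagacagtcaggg
Ccr1: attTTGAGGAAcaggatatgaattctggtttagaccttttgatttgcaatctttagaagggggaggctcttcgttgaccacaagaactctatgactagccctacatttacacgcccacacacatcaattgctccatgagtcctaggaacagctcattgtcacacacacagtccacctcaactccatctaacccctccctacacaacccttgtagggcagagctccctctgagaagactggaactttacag
Cxcr2: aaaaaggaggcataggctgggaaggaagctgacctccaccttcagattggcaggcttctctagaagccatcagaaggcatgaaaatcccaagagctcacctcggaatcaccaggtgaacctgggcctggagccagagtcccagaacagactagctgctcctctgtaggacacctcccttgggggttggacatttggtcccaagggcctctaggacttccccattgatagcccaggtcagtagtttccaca
Cxcl16: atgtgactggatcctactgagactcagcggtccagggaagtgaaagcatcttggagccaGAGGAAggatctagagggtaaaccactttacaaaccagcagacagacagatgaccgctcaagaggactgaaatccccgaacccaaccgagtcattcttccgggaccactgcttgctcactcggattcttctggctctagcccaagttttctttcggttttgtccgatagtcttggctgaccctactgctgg

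The motifs searched were TATAAA (a site of promoter assembly just upstream of the start), GAGGAA (the core of sites for the myeloid factor PU.1), TTNCNNAA (a short form of the C/EBP motif), TGANTCA (AP-1) and the NF-kB consensus, each on both strands. In Ccl6 a TATAAA lay at -32 to -27 from the start and a TTNCNNAA at -50 to -43. In Ccr1 a GAGGAA at -245 to -240 lay inside a TTNCNNAA at -247 to -240. Cxcl16 held a GAGGAA at -191 to -186, and the Cxcr2 window held none of these letters. Of 33469 rat promoters of this length, 12.9% held TATAAA, 23.3% GAGGAA, 37.2% TTNCNNAA, 6.34% TGANTCA and 6.33% the NF-kB consensus. Among the 11 of 14 bright genes with a promoter entry (32 of all 41), these were found in 3, 4, 7, 1 and 2 promoters. On GRCr8, Ccl5, Ccl9, Ccl6, Ccl3 and Ccl4 stand next to each other on chromosome 10 with no other protein-coding gene between them. Ccr1 and Ccr3 are neighbours on chromosome 8, with Ccr2 next after 1 further gene, and Cxcr2 adjoins Cxcr1 on chromosome 9.

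Of 8 marker lists of blood cells, 7 had a mean above log2 4 on every array, with the erythroid list (12 measured genes) between 9.20 and 12.31 and the T cell list (16 genes) between 8.20 and 10.25. The list of basophil and mast cell genes was the exception, with 3 of 7 genes bright and means from 2.81 to 5.62. Differences below are log2 differences of GC-RMA values with their standard errors, and a gene is called at a fold change of at least 1.2 with p at most 0.05 in the model of all 42 arrays or at most 0.01 elsewhere. Adjusted p values are from limma over 31042 probe sets. Array 2 of tPA without MCAO and array 1 of permanent-MCAO with tPA had the lowest median correlations with their own groups, 0.931 and 0.893. They are the arrays said below to stand apart. Next lowest were arrays 4 and 6 of permanent-MCAO with tPA, both at 0.936, close to the first of these. The mean of the hybridization controls, RNAs added to every sample before it goes on the array, was 11.16 ± 0.75 (SD, n = 6) in tPA without MCAO and 12.22 ± 0.22 (SD, n = 6) in anesthesia. The lowest level of these controls, 9.72, was that of array 2 of tPA without MCAO. In whole blood, fewer cells of a type and less RNA per cell cannot be told apart.

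In the model of all arrays, averaged over rats without and with tPA, ischemic stroke was linked with higher Ccl4, Ccl5, Ccl6, Ccr1 and Cxcr2 and with lower Ccl9, Ccr6 and Cxcl16. These 8 of 14 bright genes (8 of 41 in all) stand beside 31.1% of all bright probe sets called in either direction, 12.5% higher and 18.6% lower (6.02% and 9.39% of probe sets of any brightness). The median difference was 0.22 over the 14 genes and -0.09 over all bright probe sets. The 5 higher genes also had an adjusted p of at most 0.05, as did 16.3% of bright probe sets, and the 3 lower ones did not. Ccr1 rose by 1.05 ± 0.21 (adjusted p = 0.00179), Cxcr2 by 0.96 ± 0.23 (adjusted p = 0.00767) and Ccl4 by 0.64 ± 0.16 (adjusted p = 0.00938). Ccl5 rose by 0.54 ± 0.12 (adjusted p = 0.0045) and Ccl6 by 0.43 ± 0.08 (adjusted p = 0.000828). Each of these 5 was called under every alternative tried, while the 3 lower calls were lost with the tPA group without MCAO coded as not anesthetised (Ccl9 -0.89, Ccr6 -0.53, Cxcl16 -0.99). Under that coding Ccl6 kept an adjusted p under 0.05 (0.0293) and the other 4 did not (0.0811 to 0.294), and of all 31042 probe sets 2427 were called in place of 4785, with 44 in place of 2440 after adjustment. Cxcr4, at 0.27 ± 0.13 (adjusted p = 0.24), was not called by its chosen probe set, while its other probe sets, at 0.41 ± 0.14 (adjusted p = 0.0709) and 0.31 ± 0.12 (adjusted p = 0.123), were called higher.

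**Figure D1:**
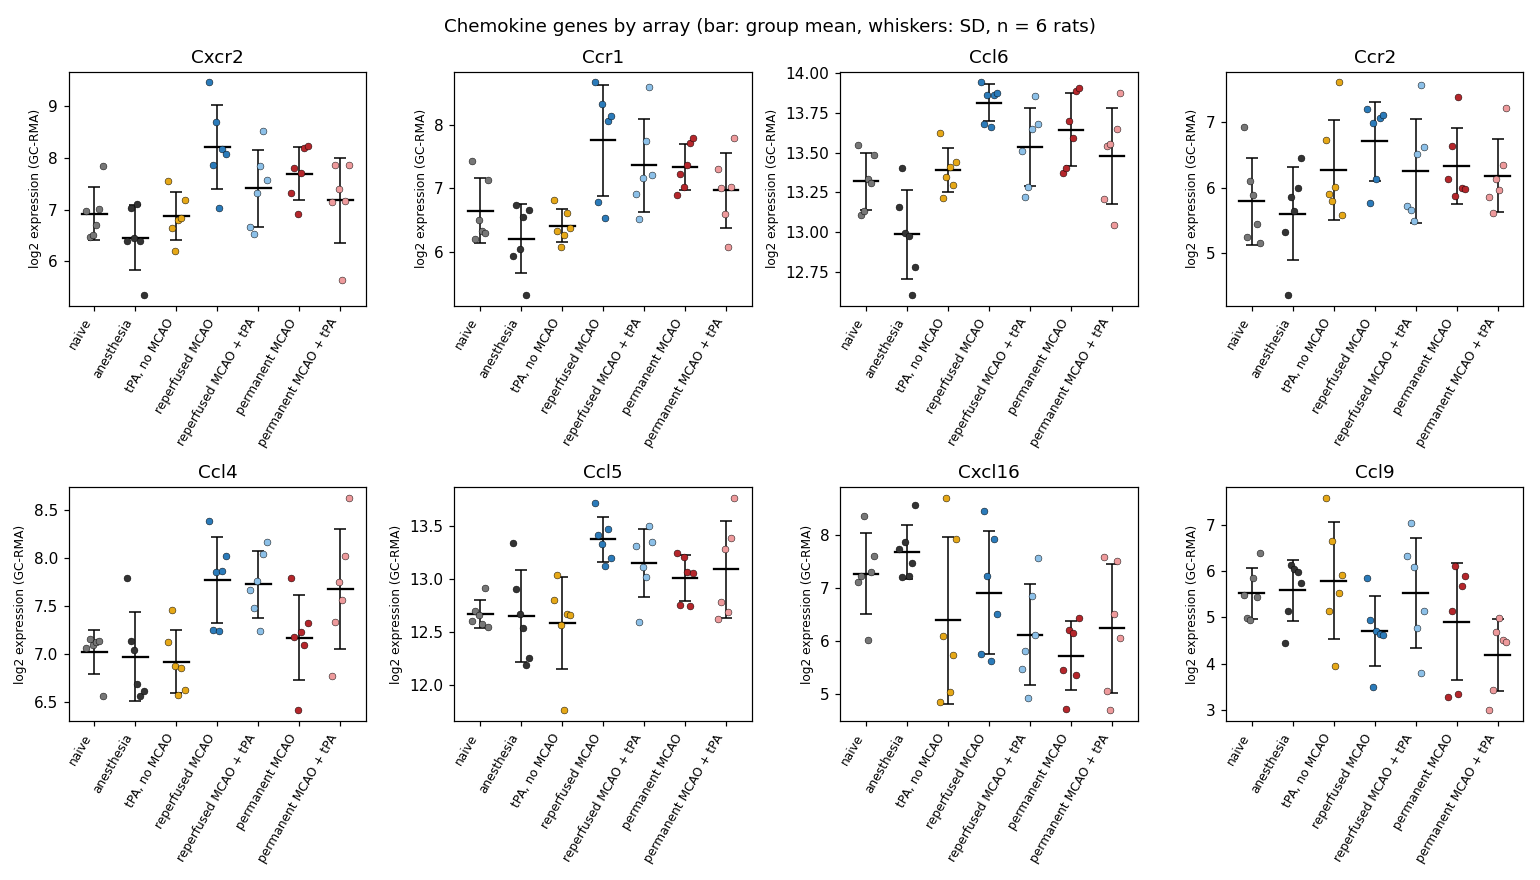
Log2 expression of 8 bright chemokine and receptor genes on each of 42 arrays, 1 point per rat, by group, with the mean (bar) and SD (whiskers) of 6 rats. For Ccl6 the reperfused-MCAO rats sit between 13.66 and 13.94, all above the anesthesia rats at 12.61 to 13.41, while for Cxcl16 the permanent-MCAO rats at 4.73 to 6.43 sit below the anesthesia rats at 7.22 to 8.57.

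Among the receptors, Cxcr2, through which neutrophils follow Cxcl1 and Cxcl2, showed the largest difference in reperfused-MCAO. Its log2 level had a low of 5.35, a median of 6.43 and a high of 7.11 in anesthesia. In reperfused-MCAO it ran from 7.04 over a median of 8.13 to 9.46, and in permanent-MCAO from 6.92 over 7.76 to 8.24. A single reperfused-MCAO rat fell inside the top of the anesthesia range, and most permanent-MCAO rats lay above it. The difference was 1.77 ± 0.40 in reperfused-MCAO, a fold change of 3.40 (adjusted p = 0.0516, two-sided exact permutation p = 0.00433), and 1.24 ± 0.32 in permanent-MCAO (adjusted p = 0.178, exact permutation p = 0.00649). Both comparisons use the same anesthesia rats, and they are given side by side throughout. Against naive rats in place of anesthesia, the reperfused difference was 1.30 and called, and the permanent one was 0.77 and not called. The permanent call was also lost with the replicate number as a block (adjusted p = 0.446). The neutrophil list moved beside Cxcr2: 4 of its 11 measured genes were called higher in reperfused-MCAO and 3 in permanent-MCAO, with 0 lower. Of all bright probe sets, 8.73% and 3.9% were called higher. Its mean per array was 7.56 to 8.83 in anesthesia, 7.96 to 10.09 in reperfused-MCAO and 7.87 to 9.49 in permanent-MCAO, and its part in the Cxcr2 result was not tested.

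Ccr1, a receptor for Ccl3, Ccl5 and other CC ligands on monocytes and neutrophils, was higher in both kinds of MCAO. Its level was 5.31, 6.30 and 6.73 (lowest, median and highest) in anesthesia, 6.54, 8.11 and 8.68 in reperfused-MCAO. In permanent-MCAO these were 6.90, 7.31 and 7.80. Every permanent-MCAO rat lay above every anesthesia rat, a separation that 1.71% of all bright probe sets showed. The difference was 1.56 ± 0.41 in reperfused-MCAO (adjusted p = 0.0814, exact permutation p = 0.0108) and 1.13 ± 0.26 in permanent-MCAO (adjusted p = 0.123, exact permutation p = 0.00217). Against naive rats these were 1.11 and 0.69, and neither was called. The reperfused call was also lost with the hybridization control level in the model (1.58) and with the replicate number as a block.

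Ccr2, the receptor that draws monocytes to Ccl2, ran from 4.36 over 5.75 to 6.45 in anesthesia, from 5.76 over 7.02 to 7.19 in reperfused-MCAO and from 5.87 over 6.06 to 7.37 in permanent-MCAO. The groups overlapped. Its difference of 1.10 ± 0.37 in reperfused-MCAO (adjusted p = 0.174, exact permutation p = 0.0173) was not called, and that in permanent-MCAO was 0.73 ± 0.36 (adjusted p = 0.722). Of the monocyte list, 5 of 11 measured genes were called higher in reperfused-MCAO and 2 in permanent-MCAO, beside 8.73% and 3.9% of bright probe sets.

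The ligand Ccl6, a rodent CC chemokine of neutrophils and macrophages that acts on Ccr1, gave the smallest p of the genes in reperfused-MCAO. Its level was 12.61, 12.99 and 13.41 in anesthesia, 13.66, 13.86 and 13.94 in reperfused-MCAO. Permanent-MCAO rats were at 13.37, 13.65 and 13.90. The reperfused rats did not overlap with anesthesia, as held for 4.41% of all bright probe sets, while the lowest permanent rats touched the anesthesia range. Ccl6 rose by 0.83 ± 0.12 in reperfused-MCAO (adjusted p = 0.0129, exact permutation p = 0.00217, the smallest that 12 rats allow). It was the 1 gene of 14 with an adjusted p of at most 0.05 there, beside 4.75% of bright probe sets. In permanent-MCAO it rose by 0.66 ± 0.14 (adjusted p = 0.11, exact permutation p = 0.00649). Naive rats, at 13.11, 13.32 and 13.55, lay above most anesthesia rats, and against them the differences were 0.49 and 0.32, of which the first was called. With the replicate number as a block the permanent call was lost as well (adjusted p = 0.458).

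Ccl4 and Ccl5, CC ligands that cytotoxic lymphocytes release on activation, were called in reperfused-MCAO. Ccl4 was at 6.56, 6.87 and 7.79 in anesthesia, at 7.24, 7.86 and 8.39 in reperfused-MCAO and at 6.42, 7.20 and 7.79 in permanent-MCAO. Ccl5, also carried in platelets, was at 12.19, 12.60 and 13.34 in anesthesia, at 13.12, 13.37 and 13.71 in reperfused-MCAO and at 12.74, 13.06 and 13.25 in permanent-MCAO. For both ligands the reperfused rats overlapped with the highest anesthesia rats, and the permanent ones overlapped too. Ccl4 was higher by 0.79 ± 0.25 in reperfused-MCAO (adjusted p = 0.154, exact permutation p = 0.0108) and by 0.20 ± 0.25 in permanent-MCAO (adjusted p = 0.975). Ccl5 was higher by 0.72 ± 0.19 in reperfused-MCAO (adjusted p = 0.0814, exact permutation p = 0.00866) and by 0.36 ± 0.19 in permanent-MCAO (adjusted p = 0.766). Whether the kinds of MCAO differ for these genes was not tested. The Ccl4 call was lost on leaving out any rat but anesthesia 1 and reperfused-MCAO 2 and 4 (9 of 12, with values from 0.67 to 0.96) and by the methods' test, and both calls were lost with the hybridization control level in the model (0.49 for each). The list of NK and cytotoxic cell genes moved beside them, with 5 of 12 measured genes called higher in reperfused-MCAO and 0 in permanent-MCAO. The shares of bright probe sets called higher were 8.73% and 3.9%. The mean of this list per array was 7.11 to 7.68 in anesthesia, 7.49 to 8.54 in reperfused-MCAO and 7.40 to 7.88 in permanent-MCAO, and its part in the result was not tested. Ccl3, a close relative and chromosomal neighbour of Ccl4, differed by 0.05 ± 0.21 in reperfused-MCAO (adjusted p = 0.89) and stood between 7.58 and 9.04 in anesthesia and between 7.93 and 8.54 in reperfused-MCAO.

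Cxcl16, a chemokine made with a membrane anchor that binds Cxcr6, was the gene that fell furthest. Its level was 7.22, 7.60 and 8.57 in anesthesia and 4.73, 5.81 and 6.43 in permanent-MCAO, so that the groups did not overlap. It fell by 1.95 ± 0.32 on the log2 scale in permanent-MCAO, a fold change of 3.87 (adjusted p = 0.0509, exact permutation p = 0.00217), and the call held under every alternative tried. In reperfused-MCAO it ran from 5.63 over 6.87 to 8.44 with a difference of -0.76 ± 0.49 (adjusted p = 0.415). Rats given tPA without MCAO were widely spread, from 4.86 to 8.70. In the averaged model the difference was -0.78 ± 0.37 (adjusted p = 0.208), a call that was lost on leaving out any 1 of 14 of the 42 rats (values from -0.94 to -0.55), after quantile scaling (-0.72) and with the hybridization control level in the model (-0.62). Without the tPA group that had no MCAO it was -1.36.

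Ccl9, another rodent CC ligand of Ccr1, and Ccr6, the receptor for Ccl20 on B cells and some T cells, were lower in the averaged model. Ccl9 ran from 4.45 over 5.87 to 6.13 in anesthesia, from 3.48 over 4.67 to 5.86 in reperfused-MCAO and from 3.28 over 5.41 to 6.12 in permanent-MCAO. Its averaged difference was -0.86 ± 0.36 (adjusted p = 0.138), and the call was lost without array 1 of tPA without MCAO (-0.68) and without that whole group (-0.78). Ccr6 ran from 6.80 over 7.77 to 9.06 in anesthesia, from 6.51 over 7.94 to 8.51 in reperfused-MCAO and from 6.49 over 7.14 to 8.23 in permanent-MCAO. Its averaged difference was -0.57 ± 0.24 (adjusted p = 0.148), and the call was lost without array 1 of anesthesia (-0.44), without both arrays that stood apart (-0.51), without the tPA group that had no MCAO (-0.26) and with the hybridization control level in the model (-0.38). Neither gene was called in a kind of MCAO by itself, and the groups overlapped. In the averaged model 5 of 9 measured B cell genes and 15 of 16 T cell genes were called lower, beside 18.6% of bright probe sets. Against anesthesia, 0 genes of either list were called in reperfused-MCAO or in permanent-MCAO. With tPA without MCAO, 14 of 16 T cell genes and 0 of 9 B cell genes were called higher than in anesthesia. Of bright probe sets, 18.8% were called higher there. The part of these lists in the Ccr6 result was not tested.

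Counted by comparison, 5 of 14 bright genes were called higher in reperfused-MCAO and 0 lower, beside 8.73% of bright probe sets called higher and 4.3% lower. In permanent-MCAO 3 were called higher and 1 lower, beside 3.9% and 2.17%. The median difference of the 14 genes was 0.51 in reperfused-MCAO, where that of all bright probe sets was 0.03, and 0.28 in permanent-MCAO, where it was -0.01. None of the 27 dim genes was called in either. Over all 31042 probe sets 1864 and 862 were called, of which 1724 and 803 were bright. Between anesthesia and naive rats 0 of 14 genes were called by limma, beside 1.74% of bright probe sets. Of these genes 1, Ccl6, had an unadjusted p under 0.05, with a difference of -0.33 ± 0.13 (adjusted p = 0.94), and by the methods' test the count was 0 as well. Next by p were Ccr1 (-0.45 ± 0.29) and Cxcr2 (-0.47 ± 0.32), with adjusted p = 0.94 for both.

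**Figure D2:**
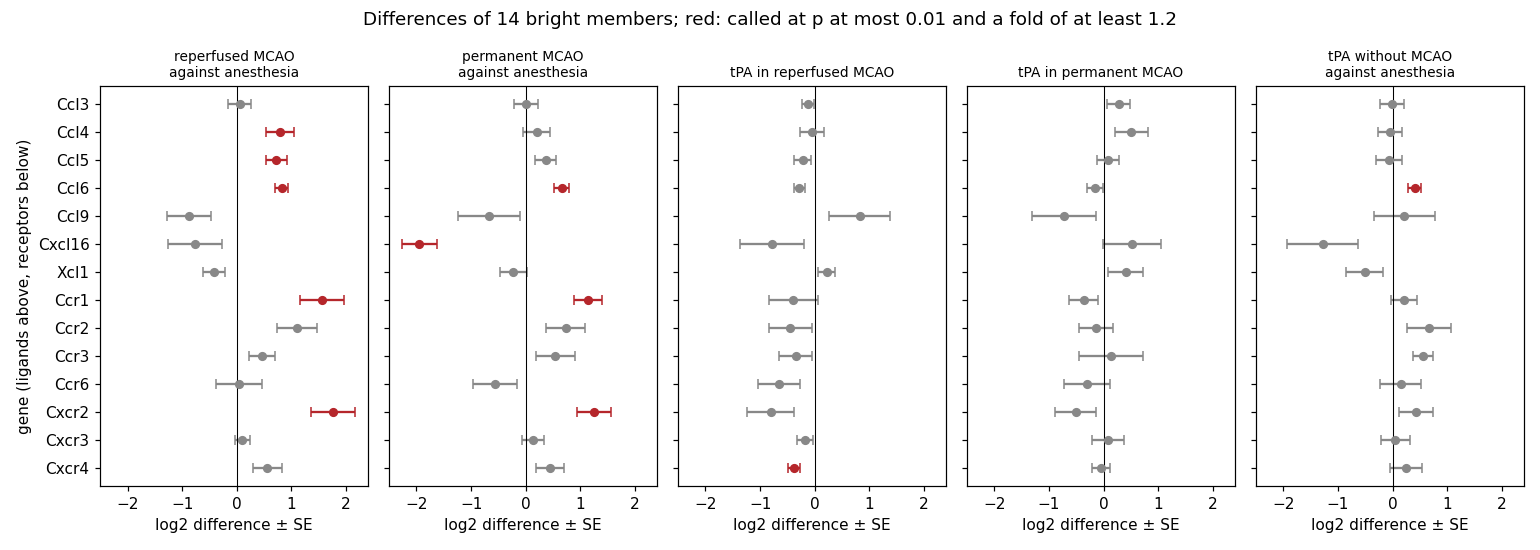
Log2 difference (point) and standard error (bar) of the 14 bright genes in 5 comparisons of 6 rats with 6, with ligands above receptors and genes called at p at most 0.01 and a fold change of at least 1.2 in red. Cxcr2 at 1.77 and Ccr1 at 1.56 stand furthest to the right in reperfused-MCAO and Cxcl16 at -1.95 furthest to the left in permanent-MCAO, while 1 gene is red for tPA in reperfused-MCAO (Cxcr4), 0 in permanent-MCAO and 1 without MCAO (Ccl6).

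For tPA averaged over rats without and with MCAO, 0 of 14 genes were called, beside 13.1% of bright probe sets called higher and 10.9% lower. No bright gene had an unadjusted p under 0.05, and the methods' test called 0 too. Cxcl16 had the smallest p, with a difference of -0.71 ± 0.37 (adjusted p = 0.304), followed by Ccl6 at 0.09 ± 0.08 (adjusted p = 0.59) and Ccr3 at 0.22 ± 0.24 (adjusted p = 0.678). Ccl6 had the opposite sign, -0.08, with the tPA group without MCAO coded as not anesthetised. Without that group, Ccl6 was at -0.22, Ccr3 at -0.11, and Cxcr2 was called at -0.66. Cxcl16 was called after quantile scaling (-0.76), and with the hybridization control level in the model both Cxcl16 (-0.96) and Cxcr4 (-0.31) were called. The calls over all 31042 probe sets, 3711 with 1352 after adjustment, became 504 and 1 with that level in the model, 1681 and 4 with the other coding and 938 and 0 without the group.

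In reperfused-MCAO the tPA-treated rats had lower Cxcr4, the receptor for Cxcl12 that holds leukocytes in the marrow, and this was the 1 call among 14 genes, beside 1.43% of bright probe sets. Cxcr4 stood at 10.61, 11.11 and 11.17 without tPA and at 10.37, 10.56 and 10.81 with tPA, and the ranges overlapped. The difference was -0.38 ± 0.11 (adjusted p = 0.542, exact permutation p = 0.013). The call was lost on leaving out any rat but numbers 1 and 3 without tPA and 1 and 4 with it (8 of 12, with values from -0.46 to -0.34), and the other Cxcr4 probe sets, at -0.51 and -0.31, were not called. Next by p were Ccl6 at -0.28 ± 0.11 and Cxcr2 at -0.81 ± 0.44 (adjusted p = 0.542 for both). Differences were negative in 12 of 14 genes, with a median of -0.32, where that of all bright probe sets was -0.03. The share of negative differences over all bright probe sets was not counted. The 14 genes are not independent, with r within groups of 0.67 to 0.73 among Ccl6, Ccr1 and Cxcr2.

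In permanent-MCAO 0 of 14 genes were called with tPA, beside 0.62% of bright probe sets, and 0 had an unadjusted p under 0.05 (0 also by the methods' test). The smallest p values were those of Ccl4 (0.51 ± 0.30), Cxcr2 (-0.52 ± 0.38) and Ccr1 (-0.37 ± 0.27), each with adjusted p = 1.0. Cxcr4 differed by -0.05 ± 0.16. A test of the tPA effect in reperfused-MCAO minus that after permanent-MCAO called 0 genes, beside 0.446% of bright probe sets, with 0 at an unadjusted p under 0.05 and 0 by the methods' test. Ccl9 came first, with 0.82 ± 0.55 in reperfused-MCAO, -0.73 ± 0.59 in permanent-MCAO and a difference of 1.55 ± 0.82 (adjusted p = 0.978). Ccl3 (-0.40 ± 0.23) and Cxcr4 (-0.33 ± 0.20) followed with the same adjusted p.

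Without MCAO, Ccl6 was the 1 gene of 14 called between tPA and anesthesia, beside 28.7% of bright probe sets. Its level with tPA was 13.22, 13.38 and 13.63, above most anesthesia rats and mostly inside the range of the naive ones. The difference was 0.40 ± 0.12 against anesthesia (adjusted p = 0.0557, exact permutation p = 0.013) and 0.07 against naive rats. Leaving out any rat but anesthesia 1 and 2 and tPA 2 (9 of 12) ended the call, as did the methods' test, while the difference stayed between 0.33 and 0.49. Ccr3, the eotaxin receptor of eosinophils, was at 4.62, 5.32 and 5.49 in anesthesia and 5.25, 5.76 and 6.11 with tPA. It differed by 0.56 ± 0.18 (adjusted p = 0.065), was not called, and was called with the replicate number as a block. Cxcl16 differed by -1.28 ± 0.65 (adjusted p = 0.196). Over all 31042 probe sets the calls in this comparison, 4267 with 3884 after adjustment, became 803 and 3 with the hybridization control level in the model and 1611 and 4 against naive rats, and Ccl6 was not called in either. All of these rest on a group whose hybridization controls were lower, and the part of that in the values was not tested.

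The interaction, the tPA effect with MCAO minus that without, called Ccl6, Ccr2 and Cxcr2 with negative sign and Xcl1 with positive sign. These 4 of 14 genes stand beside 40.6% of bright probe sets, and the median over the 14 genes was -0.32 where that of all bright probe sets was -0.25. Ccl6, at -0.62 ± 0.16, passed the adjusted threshold (adjusted p = 0.0118), as did 18.0% of bright probe sets. Calls over all 31042 probe sets, 6529 with 2939 after adjustment, became 1909 and 2 with the hybridization control level in the model and 3908 and 58 with the tPA group without MCAO coded as not anesthetised. Cxcr2 was at -1.08 ± 0.46 (adjusted p = 0.115) and Ccr2 at -0.96 ± 0.46 (adjusted p = 0.161), and both calls were lost after quantile scaling (-0.94 and -0.77). The Ccr2 call was lost on leaving out any 1 of 18 rats (values from -1.13 to -0.69), and that of Cxcr2 without array 6 of anesthesia or array 1 of tPA without MCAO (values from -1.22 to -0.86). Xcl1, a chemokine of NK and activated T cells that attracts dendritic cells, was at 0.82 ± 0.34 (adjusted p = 0.106), a call lost without array 4 of tPA without MCAO (0.53). Its level was 4.54, 4.80 and 5.54 in anesthesia, 2.97, 4.60 and 5.22 with tPA alone, 3.93, 4.65 and 4.95 in reperfused-MCAO and 4.54, 4.77 and 4.86 after tPA. In permanent-MCAO it was 3.70, 4.93 and 5.02, and 4.41, 5.02 and 6.21 after tPA, so that all groups overlapped. With the tPA group without MCAO coded as not anesthetised, Xcl1 (0.75) alone was called and Ccl6 was at -0.29.

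**Figure D3:**
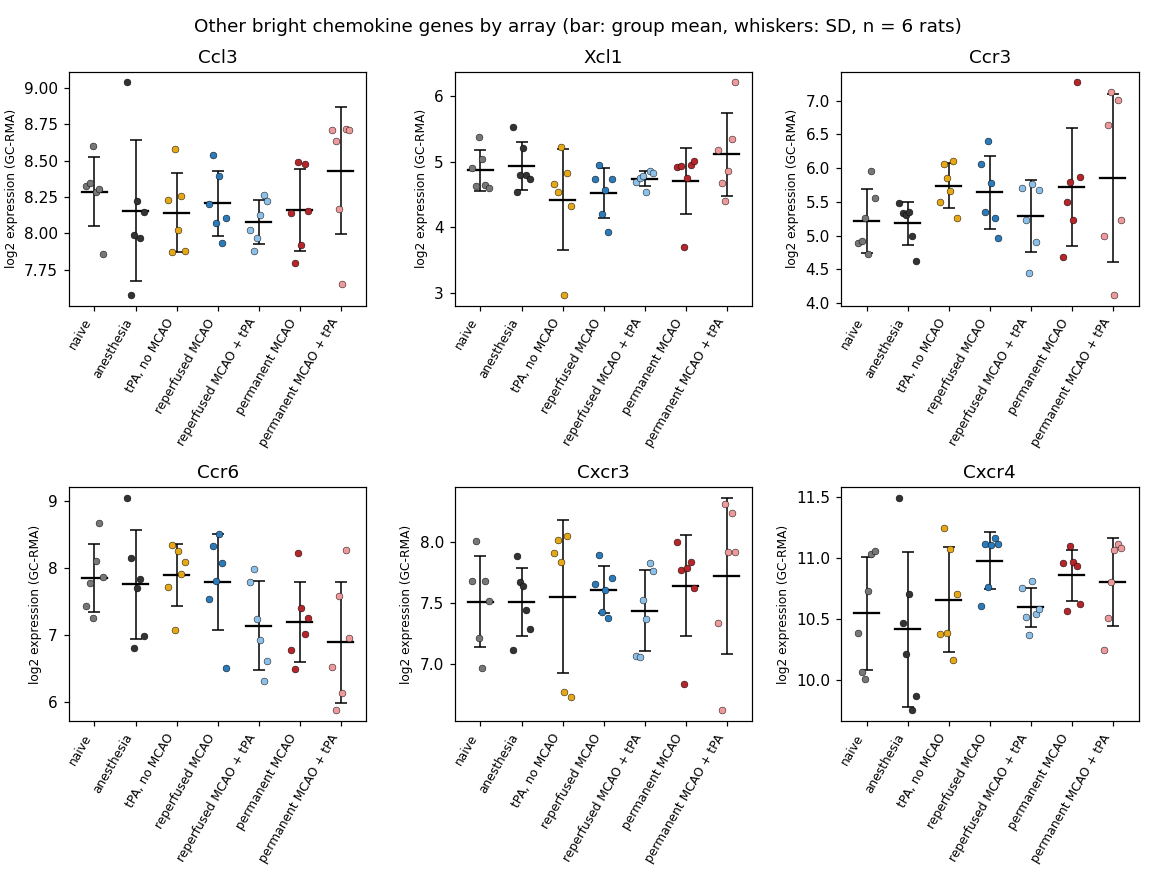
Log2 expression of the 6 other bright genes on each of 42 arrays by group, 1 point per rat, with the mean (bar) and SD (whiskers) of 6 rats. The groups overlap in all panels, and the 6 reperfused-MCAO rats for Cxcr4 (10.61 to 11.17) stand partly above the 6 treated with tPA (10.37 to 10.81).

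Cxcr3, the receptor of cytotoxic and helper T cells and NK cells for Cxcl9, Cxcl10 and Cxcl11, was flat, with group means from 7.44 to 7.72. Ccl3, which recruits cells through Ccr1, was likewise level, with group means from 8.08 to 8.43, and neither was called in a comparison. Ccr3 had group means from 5.18 to 5.85 and was widest in permanent-MCAO with tPA, from 4.12 to 7.12.

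The dim genes include ligands of several bright receptors. These are Cxcl1, Cxcl2, Cxcl3 and Cxcl6 for Cxcr2, Ccl2 and Ccl7 for Ccr2, and Ccl11 and Ccl24 for Ccr3. Further ones are Ccl20 for Ccr6, Cxcl9, Cxcl10 and Cxcl11 for Cxcr3, and Cxcl12 for Cxcr4. Ligands whose symbols fall outside the rule for choosing genes are not counted here, so these levels do not speak for every ligand. Means of the dim genes over all arrays lay between 2.10 and 3.37. For 19 of the 27 the 7 group means spanned at most 0.2. None was called in any of the 10 comparisons. Most calls over all probe sets fell on bright ones, such as 5368 of 6529 in the interaction. The share of all dim probe sets called was not counted, so this count of 0 cannot be read as particular to these genes. Cxcl13, the B cell attractant, passed an adjusted threshold in the interaction (0.19 ± 0.06, adjusted p = 0.0332), under the fold threshold and with group means from 2.65 to 2.81. Ccl24, the eosinophil attractant eotaxin-2, had a median of 2.16 in reperfused-MCAO but reached 7.47 in 1 rat there and 5.80 in 1 permanent-MCAO rat. Ccl2, the monocyte attractant, showed the largest difference among dim genes without MCAO, -0.83 with tPA against anesthesia (adjusted p = 0.141), where anesthesia ran from 2.90 to 5.37 and tPA from 2.72 to 2.97.

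**Figure D4:**
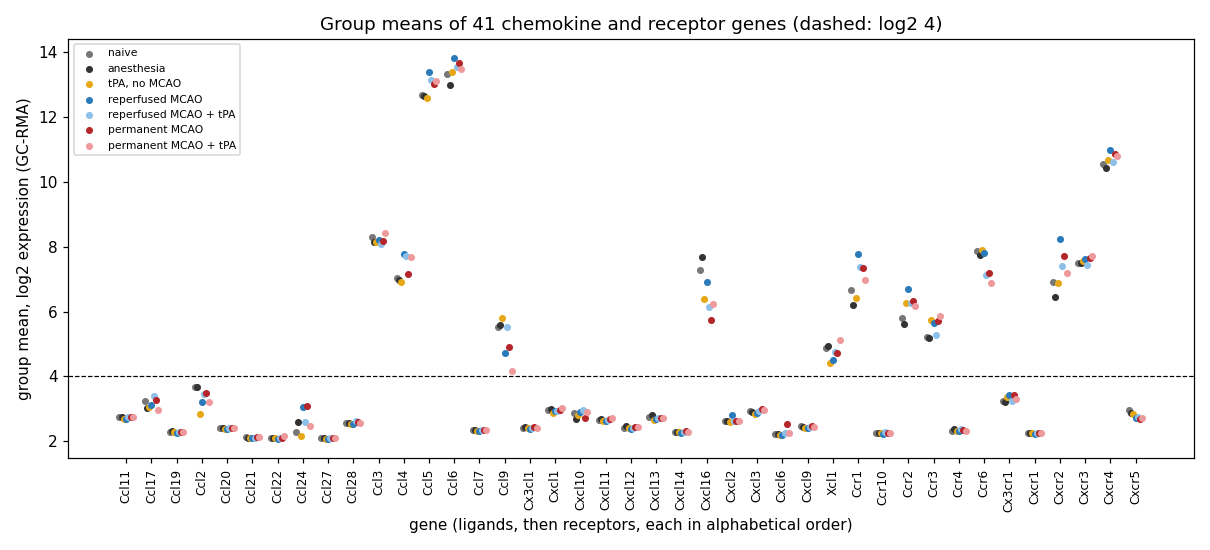
Mean log2 expression of all 41 genes in each of the 7 groups, 1 point per group, with the limit of log2 4 dashed. The 14 bright genes lie above the line and the 27 dim genes below it, most of them with group means on top of each other; heights of different probe sets are not comparable.

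Across rats of the same group, several of these genes moved with marker genes of blood cells, some of them with more than 1 list. Each of the 14 genes was set against the mean of each of 8 marker lists, 112 relations in all, using deviations from the group means of the 42 rats with permutation within groups and Benjamini-Hochberg adjustment over the 112. Of these 22 had an adjusted p of at most 0.05. The p of 1e-05 that some reached is the smallest that the permutations can give.

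Ccl4 (r = 0.78, rho = 0.81) and Ccl5 (r = 0.77, rho = 0.73) moved with the NK and cytotoxic list, Ccr6 with the B cell list (r = 0.79, rho = 0.75) and Cxcr2 with the neutrophil list (r = 0.74, rho = 0.69). The permutation p of r was 1e-05 in each (adjusted p = 0.00028), and that of rho was 1e-05 (adjusted p = 0.000373) except for Cxcr2 at 2e-05 (adjusted p = 0.000448). Without the 2 rats farthest from the median of the list, r was 0.78, 0.71, 0.75 and 0.66 in that order. Ccr1 (r = 0.70, permutation p = 2e-05, adjusted p = 0.000448, and rho = 0.68, permutation p = 2e-05, adjusted p = 0.000448) followed the neutrophil list too, with r = 0.64 without those 2 rats. Ccl6 (r = 0.62, permutation p = 9e-05, adjusted p = 0.00168, and rho = 0.59, permutation p = 0.00028, adjusted p = 0.00464) did so with r = 0.57 without them.

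Ccr2 moved with the monocyte list (r = 0.56, permutation p = 0.00029, adjusted p = 0.00361, and rho = 0.54, permutation p = 0.00055, adjusted p = 0.00684), with r = 0.50 without the 2 farthest rats. Ccl9 moved against the platelet list (r = -0.59, permutation p = 0.00023, adjusted p = 0.00322, and rho = -0.58, permutation p = 0.00029, adjusted p = 0.00464), with r = -0.55 without them. Ccl5 did not follow the platelet list within groups (r = 0.00, permutation p = 0.995, adjusted p = 0.998, and rho = -0.06, permutation p = 0.725, adjusted p = 0.837). Cxcl16 followed neither the monocyte list (r = 0.08, permutation p = 0.677, adjusted p = 0.852, and rho = 0.09, permutation p = 0.627, adjusted p = 0.78) nor the NK and cytotoxic list (r = 0.03, permutation p = 0.888, adjusted p = 0.947, and rho = 0.00, permutation p = 0.994, adjusted p = 0.994).

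Several of the same genes passed with a further list. Ccl6 (r = 0.53, permutation p = 0.00113, adjusted p = 0.00904, and rho = 0.46, permutation p = 0.00575, adjusted p = 0.0429), Ccr1 (r = 0.56, permutation p = 0.00112, adjusted p = 0.00904, and rho = 0.43, permutation p = 0.011, adjusted p = 0.065) and Cxcr2 (r = 0.54, permutation p = 0.00271, adjusted p = 0.019, and rho = 0.38, permutation p = 0.0222, adjusted p = 0.104) also rose with the NK and cytotoxic list, as did Xcl1 (r = 0.54, permutation p = 0.00082, adjusted p = 0.00765, and rho = 0.53, permutation p = 0.00093, adjusted p = 0.00868). Without the 2 farthest rats r was 0.41, 0.48, 0.48 and 0.50 in that order. Against the erythroid list moved Ccl5 (r = -0.60, permutation p = 0.00071, adjusted p = 0.00723, and rho = -0.55, permutation p = 0.00088, adjusted p = 0.00868) and Cxcr4 (r = -0.59, permutation p = 0.00016, adjusted p = 0.00256, and rho = -0.57, permutation p = 0.00083, adjusted p = 0.00868), with r = -0.55 and -0.51 without those rats. With the B cell list Cxcr4 rose (r = 0.49, permutation p = 0.00036, adjusted p = 0.00403, and rho = 0.53, permutation p = 0.00042, adjusted p = 0.00588) and Ccr2 fell (r = -0.49, permutation p = 0.00239, adjusted p = 0.0178, and rho = -0.50, permutation p = 0.00151, adjusted p = 0.013), with r = 0.59 and -0.41 without them. The remaining relations that passed had adjusted p of r from 0.0399 to 0.048, and for rho only that of Cxcr3 stayed under 0.05 (adjusted p = 0.0378): Ccr1 against the B cell and T cell lists, Cxcr4 with the T cell list, Cxcr3 with the NK and cytotoxic list, and Ccl4 and Ccr6 against the erythroid list. In that order r was -0.49, -0.46, 0.37, 0.45, -0.42 and -0.40. Without the 2 farthest rats it was -0.40, -0.43, 0.27, 0.46, -0.26 and -0.41. No relation was adjusted for another list or for the hybridization control level. For the genes that moved against the erythroid list, r within groups with that level was -0.55 (Cxcr4), -0.38 (Ccl5), -0.33 (Ccl4) and -0.27 (Ccr6). Array 2 of tPA without MCAO was lowest in both the hybridization controls (9.72) and the erythroid list (9.20). The part of that level in these relations was not tested.

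**Figure D5:**
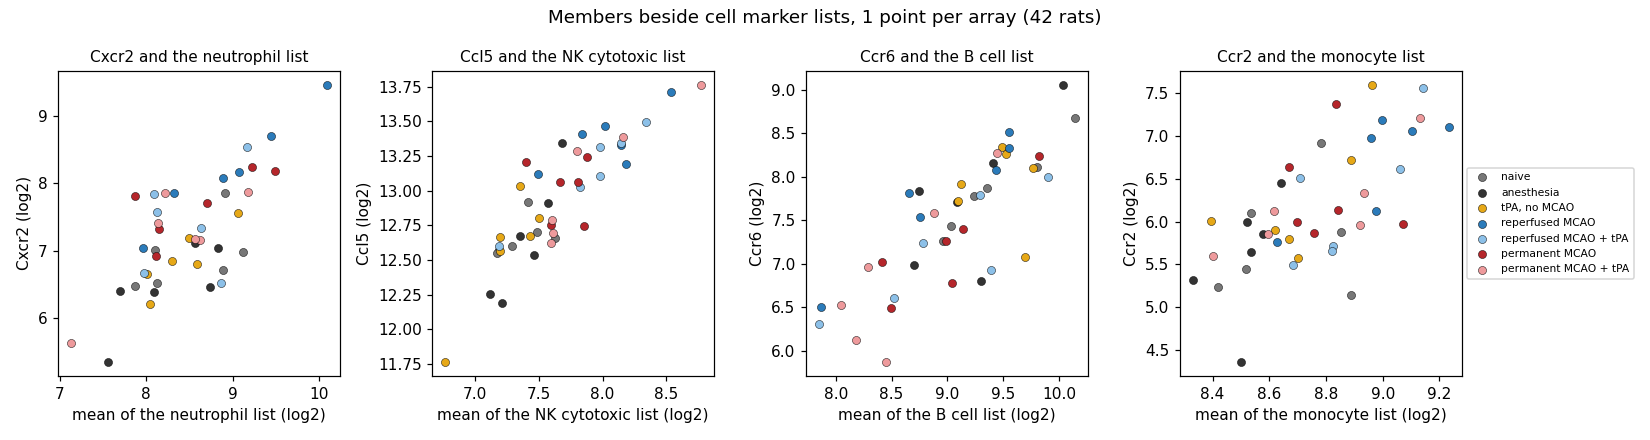
Log2 expression of Cxcr2, Ccl5, Ccr6 and Ccr2 (vertical) against the mean log2 of the neutrophil, NK and cytotoxic, B cell and monocyte lists (horizontal), 1 point for each of 42 rats, coloured by group. The points rise from lower left to upper right, with r within groups of 0.74, 0.77, 0.79 and 0.56.

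Other genes of chemokine signaling were taken from a list of 47, of which 43 were measured and 33 were bright. Among them were atypical receptors, G protein subunits, receptor kinases, arrestins, regulators of G protein signaling and downstream adaptors. The list was not limited to these classes. With stroke in the averaged model 9 were called higher and 2 lower of 43, or 25.6%, with a median difference of 0.05. Of probe sets of any brightness, 6.02% were called higher and 9.39% lower. The 31.1% of bright probe sets called in either direction is not a like comparison, because the 43 include dim genes. Jak2, the kinase downstream of cytokine receptors, rose by 0.66 ± 0.14 (adjusted p = 0.00243), Rgs19, which ends G protein signaling, rose by 0.33 ± 0.08 (adjusted p = 0.0106), and Dpp4, a surface peptidase that trims chemokines, fell by 0.70 ± 0.17 on the log2 scale (adjusted p = 0.00955). In reperfused-MCAO 11 were called higher and 1 lower, beside 8.73% and 4.3% of bright probe sets, with Jak2 at 0.93 ± 0.18 (adjusted p = 0.0263), Rgs3 at 0.89 ± 0.17 (adjusted p = 0.0275) and Rgs19 at 0.71 ± 0.14 (adjusted p = 0.031). In permanent-MCAO 3 were called higher and 1 lower, beside 3.9% and 2.17%, none after adjustment.

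With tPA without MCAO 8 of these genes were called higher and 4 lower, a share of 27.9%. Beside it stand 13.7% of all probe sets and 28.7% of bright ones (18.8% higher and 9.83% lower). The smallest p values were those of Rac2 (0.52 ± 0.11, adjusted p = 0.0152), the GTPase of leukocyte movement, Gng2 (0.54 ± 0.11, adjusted p = 0.017), a G protein subunit, and the kinase Tyk2 (0.56 ± 0.13, adjusted p = 0.0222). In the averaged tPA term 1 was called higher and 3 lower, beside 13.1% and 10.9%. The counts were 0 and 0 for tPA in reperfused-MCAO (5 of 43 with an unadjusted p under 0.05 in limma) and in permanent-MCAO (0 of 43). Of all probe sets, 0.722% were called for tPA in reperfused-MCAO and 0.322% in permanent-MCAO. In the interaction 5 were called higher and 14 lower, or 44.2%. The shares were 21.0% of all probe sets and 40.6% of bright ones (12.8% higher and 27.7% lower). Among these genes were Grk6 at -1.03 ± 0.23 (adjusted p = 0.00588), a receptor kinase, Vav1 at -0.99 ± 0.24 (adjusted p = 0.00946), an activator of Rac, and Rassf5 at -0.57 ± 0.15 (adjusted p = 0.0144), which links receptors to integrins.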

How the data were processed

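Whole-blood RNA of 42 rats was labelled and hybridized by the authors, 1 array per rat. The authors turned the scans into the deposited log2 values with GC-RMA in Partek Genomics Suite, and such values have no depth of counting, so that the number of arrays limits the precision. The scans were not used here. After 57 control probe sets were set aside, 31042 probe sets were fitted with limma 3.58.1 in R 4.3.3. The model of all arrays held terms for tPA, any MCAO, anesthesia (6 groups, naive excepted) and the product of tPA and MCAO, and other comparisons were fitted on their own 12 or 24 arrays. Genes of mean log2 4 or more were named, with full values for those called and the 3 of smallest p per comparison. Dim genes were named where an adjusted p passed 0.05 or where the difference was the largest. Of the tested probe sets, 20826 had 1 symbol, 436 several and 9780 none.

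The genes, the marker and signaling lists and the tests were chosen with earlier results of these data known. The fits were tested on simulated data. Exact permutation tests ran over all 924 ways to divide 12 rats, and relations were permuted 100000 times (seed 7). Nothing in the labels says more than that each array is 1 rat. Same-numbered rats of different groups had a median correlation of -0.04 (126 pairs, from -0.53 to 0.48, 39 over 0.1). For 630 pairs of different number the median was 0.005. These medians cannot exclude a batch shared by some same-numbered rats. Alternatives were quantile scaling, the hybridization control level as a covariate, the methods' test without shared variance, removal of dim probe sets, the replicate number as a block, the median of a gene's probe sets, other codings of anesthesia and MCAO, naive controls and omission of each array. Leaving out the tPA group without MCAO, and both arrays that stood apart, were added after seeing the data. Motifs were searched in RefSeq promoters of GRCr8. Summaries used pandas 2.3.3 and numpy 2.4.6 in Python 3.11.15, with matplotlib 3.10.9 for drawing.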

Additional observations from a re-analysis of the deposited data

Results flagged for a closer look

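In 5 of 98 sets of 6 rats, 1 rat lay far below the others of its group by Dixon's test, and chance flags about 1 in 20 such sets. These were Ccl4 in naive rats (lowest rat 6.57, next 7.06), Ccl5 in tPA without MCAO (lowest 11.76, next 12.57), Cxcr2 in permanent-MCAO with tPA (lowest 5.63, next 7.16), Cxcr3 in permanent-MCAO (lowest 6.84, next 7.63) and Xcl1 in permanent-MCAO (lowest 3.70, next 4.75).

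The interaction term called a difference of the tPA effect between rats with and without MCAO for Ccl6 (-0.62), Ccr2 (-0.96), Cxcr2 (-1.08) and Xcl1 (0.82). These 4 of 14 genes stand beside 40.6% of bright probe sets. Of the 4, Ccl6 also passed the adjusted threshold in limma, as did 18.0% of bright probe sets. With the tPA group without MCAO coded as not anesthetised, Xcl1 alone was called.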

How the results depend on the processing

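The MCAO calls of Ccl4, Ccl5, Ccl6, Ccr1 and Cxcr2 in the model of all arrays, Ccl6 in reperfused-MCAO and Cxcl16 in permanent-MCAO held under each alternative run, including each array left out in turn. Numbers of genes called moved as follows. For averaged tPA, 0 became 1 after quantile scaling, 2 with the hybridization control covariate and 1 without the tPA group that had no MCAO. For averaged MCAO, 8 became 5 with that group coded as not anesthetised, and for the interaction 4 became 1 under the same coding and 2 after quantile scaling. For tPA in reperfused-MCAO, 1 became 0 with the hybridization control covariate, without dim probe sets, with the replicate block and with the median of the probe sets. For tPA without MCAO, 1 became 0 with the hybridization control covariate, by the methods' test and against naive rats. In reperfused-MCAO 5 became 3 with the hybridization control covariate. Ccl4, Ccl5 and Ccr1 were lost there, so the 3 include at least 1 gene not among the 5. In permanent-MCAO 4 became 2 with the replicate block (Ccr1 and Cxcl16) and 2 against naive rats (Ccl5 and Cxcl16). The cause was not tested in any of these. Replicate numbers are shared by the groups, and the labels do not say that they pair the rats. With the replicate block, 5 genes were called in reperfused-MCAO, with Ccr2 in place of Ccr1, and 1 for tPA without MCAO, Ccr3 in place of Ccl6. The counts of 8 for averaged MCAO and 4 for the interaction did not move. Signs turned for averaged tPA in Ccl6 (-0.0759 with the group coded as not anesthetised, -0.22 without it) and in Ccr3 (-0.11 without it).

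With 1 array left out in turn, the counts ran from 0 to 1 for averaged tPA, 7 to 9 for averaged MCAO, 2 to 5 for the interaction, 0 to 1 for tPA in reperfused-MCAO, 0 to 0 for tPA in permanent-MCAO, 0 to 2 for tPA without MCAO, 4 to 6 in reperfused-MCAO and in permanent-MCAO, 0 to 1 for anesthesia and 0 to 1 for the difference of tPA effects. Signal over background limits the 27 dim genes, whose small differences carry little information. Single probe sets stand for all bright genes but Cxcr4.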
